A study of Mus musculus with 23 samples.

Results

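The genes examined here encode contractile and smooth-muscle proteins of the actin cytoskeleton, the reporter genes of the YAP and SRF pathways, and the transcription regulators of those pathways. They were 34 named genes out of 18193 genes with a symbol on the arrays, each represented by the probe set with the highest mean. All 34 passed the filter on low values, which kept 15266 genes for testing, and every level is given as log2 of the deposited intensity. The members comprised 24 actin cytoskeleton genes, 6 Ccn and Ankrd1 type targets (Ccn1, Ccn2, Ankrd1, Amotl2, Ajuba and Lats2) and 4 transcription regulators (Srf, Tead1, Wwtr1 and Yap1). RNA came from cultured mouse embryonic fibroblasts that all carried a retrovirus expressing the oncogene H-Ras V12, and the 23 arrays fell into 5 p53 genotypes. The WT group held 6 arrays: 3 of LSL-WT cells, in which Cre recombinase from an adenovirus removes a stop cassette and turns on a wild-type p53 allele, and 3 of p53 WT cells given the same virus. The Null group held 6 arrays: 3 of LSL-WT cells given an Empty adenovirus, so that the cassette stayed, and 3 of p53 null cells given the Cre adenovirus. The 25,26 group (5 arrays), the 53,54 group (3 arrays) and the QM group (3 arrays) were LSL knock-in cells given Cre, with substitutions that disrupt the first transactivation domain of p53, the second, or both. The strain background was 129/Sv for 3 WT, 4 Null, 4 25,26, 1 53,54 and 2 QM arrays, and a mix of 129/Sv and C57BL6 for the others. WT and Null replicates 1 to 3 are the LSL-WT cells and replicates 4 to 6 the others. The genotype label of WT replicate 6 names an LSL-WT allele although its title does not, and that of Null replicate 6 adds a knock-in. The comparisons ask how these genes differed with wild-type p53 and with each disrupted domain in cells carrying an oncogene that drives p53-dependent senescence.

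Stress fibres are bundles of filamentous actin, non-muscle and smooth-muscle myosin, tropomyosins, calponins and cross-linkers that let a fibroblast pull on its surroundings. Filament assembly lowers the pool of free actin, which releases the MRTF coactivators to join SRF at CArG boxes in the promoters of muscle-type actin genes. The same tension lets YAP and TAZ (the product of Wwtr1) escape the Hippo kinases LATS1 and LATS2 and bind TEAD factors, which recognise GGAATG-like elements near genes such as Ccn1, Ccn2 and Ankrd1. In fibroblasts these programmes are best known from activated, myofibroblast-like cells.

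Promoter sequence is shown for the members that were lower in 25,26 than in WT and had an entry in the RefSeq promoter table (build GRCm38.p6). Each run is the 250 bases before the annotated start site, read 5′ to 3′ on the gene's strand. Capitals mark GGAATG on either strand, which reads CATTCC on the opposite one, or a CArG box in its strict form. That form is CCWWWWWWGG, with W for A or T, and Acta1 and Myl9 have 1 match each.
Acta1: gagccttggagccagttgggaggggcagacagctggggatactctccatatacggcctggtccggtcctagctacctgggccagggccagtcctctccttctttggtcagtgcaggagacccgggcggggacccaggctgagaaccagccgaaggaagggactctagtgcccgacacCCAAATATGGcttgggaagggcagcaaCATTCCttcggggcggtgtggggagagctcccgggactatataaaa
Myl9: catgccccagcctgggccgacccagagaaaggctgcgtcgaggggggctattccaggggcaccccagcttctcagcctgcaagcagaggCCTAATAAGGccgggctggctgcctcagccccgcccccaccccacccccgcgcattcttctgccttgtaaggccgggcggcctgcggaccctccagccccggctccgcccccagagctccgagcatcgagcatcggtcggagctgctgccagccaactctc
Lmod1: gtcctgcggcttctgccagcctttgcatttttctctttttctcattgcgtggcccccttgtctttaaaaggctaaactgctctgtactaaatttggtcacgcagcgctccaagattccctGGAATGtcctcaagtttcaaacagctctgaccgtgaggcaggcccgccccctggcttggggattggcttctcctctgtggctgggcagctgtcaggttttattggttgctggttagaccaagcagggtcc
Ajuba: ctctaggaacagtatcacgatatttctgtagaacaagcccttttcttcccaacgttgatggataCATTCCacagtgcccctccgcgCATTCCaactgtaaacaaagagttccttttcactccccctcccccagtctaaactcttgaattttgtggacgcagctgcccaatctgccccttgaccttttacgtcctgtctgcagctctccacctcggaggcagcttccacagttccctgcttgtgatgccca
Amotl2: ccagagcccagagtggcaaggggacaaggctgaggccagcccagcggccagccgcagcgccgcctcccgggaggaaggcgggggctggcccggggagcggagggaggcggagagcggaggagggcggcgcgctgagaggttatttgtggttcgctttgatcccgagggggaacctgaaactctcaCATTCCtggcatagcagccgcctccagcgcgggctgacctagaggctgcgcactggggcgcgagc
Ankrd1: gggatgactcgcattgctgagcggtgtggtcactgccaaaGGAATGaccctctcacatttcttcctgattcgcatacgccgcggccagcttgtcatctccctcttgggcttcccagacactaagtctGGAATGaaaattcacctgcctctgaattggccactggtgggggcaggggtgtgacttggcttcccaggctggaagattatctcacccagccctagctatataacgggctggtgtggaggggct

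The Acta1 stretch lies at chr8:123894776-123895025 (minus strand), with its CArG box starting 73 bases and its CATTCC 46 bases before the start site. The Myl9 stretch lies at chr2:156775214-156775463 (plus strand), with its CArG box 161 bases upstream. The Lmod1 stretch lies at chr1:135324563-135324812 (plus strand) and holds GGAATG 130 bases upstream. The remaining stretches belong to YAP target genes and hold no CArG box. That of Ajuba lies at chr14:54577662-54577911 (minus strand), with CATTCC 186 and 164 bases upstream. That of Amotl2 lies at chr9:102717554-102717803 (plus strand), with CATTCC 65 bases upstream. That of Ankrd1 lies at chr19:36119845-36120094 (minus strand), with GGAATG 210 and 123 bases upstream.

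Promoter windows of 300 bases, which add 50 bases after the start, were matched for 30 of the 34 members. Actg2, Tagln, Ccn2 and Tead1 were not matched. A CArG box lay in 1.64% of all 32544 windows in the table. It lay in 25.0% of the actin cytoskeleton windows, from 6 of 22 genes (Acta1, Actc1, Cnn2, Filip1l, Myl9 and Vcl). The Srf window also held it, and those of the targets did not (0 of 5 genes). GGAATG on either strand lay in 14.6% of all windows. It lay in 41.7% of the actin cytoskeleton windows (10 of 22 genes) and in 83.3% of the target windows (5 of 5 genes). The Lats2 match lies after the start site, and another Lats2 window held none. No CArG match overlapped a GGAATG match in a member. A match describes the letters in this window, and binding was not measured. Looser forms of the CArG box, such as ccctatatgg in the Acta2 window, were not counted.

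Median intensity per array was 59.9 to 64.22, and the number of arrays limits the precision. The design text calls the samples biological, but no label names separate embryos or cultures. The p-values measure the spread between these samples, part of which may be technical. All 10 fibroblast markers were above the filter level of 4.79, with a mean log2 level of 12.32 to 13.58 per array over the list. All 9 epithelial and all 10 smooth-muscle and pericyte markers were above it too, so passing this level does not set cell types apart. Their list means were lower, at 6.54 to 8.03 and 6.69 to 8.04. Xist, which marks cells with 2 X chromosomes, was 11.47 to 11.86 in the WT cells with Cre and 5.72 to 6.81 in the null cells with Cre, so sex and p53 genotype cannot be told apart in that pair. In the LSL-WT cells with either virus and in the 25,26, 53,54 and QM cells, the lowest Xist level was 6.24 to 6.70 and the highest 12.28 to 12.71. Each of these sets also held both strain backgrounds, so its arrays were not all repeats of 1 source of cells. Among arrays of the same cells and virus, 25,26 replicate 2, 53,54 replicate 4 and WT replicate 5 were each the lowest for 19 of the 34 members and QM replicate 1 for 20, while Null replicate 2 and WT replicate 6 were each the highest for 19 and QM replicate 3 for 22.

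With wild-type p53, the muscle actin gene Acta1, 3 thin-filament genes, Actn1 and 3 YAP targets were higher than in Null cells, and the non-muscle myosin gene Myh10 was lower. Of the 34 members, 8 rose and 1 fell in WT against Null (limma, Benjamini-Hochberg adjusted p under 0.05), or 26.5%, where 22.7% of all genes tested were called (10.9% higher and 11.8% lower). The median difference of the members was 0.17 against 0.0015 over all genes, and 26 of the 34 differences were positive. In cell pools, fewer cells of a type and less RNA per cell cannot be told apart.

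Of the 4 muscle-type actin genes, 1 rose. Acta1, the skeletal-muscle alpha-actin gene, was at 9.30, 8.78 and 8.40 in the LSL-WT cells with Empty virus and at 9.69, 9.39 and 9.07 in the null cells. In the WT group Acta1 was at 10.66, 9.82 and 10.32 in the LSL-WT cells with Cre and at 12.20, 11.46 and 10.90 in the WT cells with Cre. The highest Null array lay below the lowest WT array, so the groups did not overlap. The difference for Acta1 was 1.79 ± 0.31 (log2 ± SE, n = 6 and 6), a 3.45-fold rise (limma adjusted p = 1.893e-04). Acta1 was 1 of 2 members above Null in every WT array, with Ajuba, and 5.04% of all genes were. Acta2, the smooth-muscle alpha-actin gene that marks myofibroblasts, had its lowest, median and highest levels at 13.25, 13.58 and 13.61 in Null and at 13.31, 13.68 and 13.93 in WT. These ranges overlapped, and the difference was 0.17 ± 0.14 (adjusted p = 0.457). Actg2, the enteric smooth-muscle actin gene, spread from 6.38 to 9.18 in Null and from 7.52 to 9.27 in WT, a difference of 0.78 ± 0.44 (adjusted p = 0.245). Actc1, the cardiac actin gene, differed by 0.16 ± 0.09 (adjusted p = 0.274).

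Of the 10 thin-filament binding genes 3 rose and none fell at this threshold. Tagln, which encodes the actin-bundling protein SM22 of smooth muscle, had its lowest, median and highest levels at 12.77, 13.36 and 13.42 in Null and at 13.35, 13.59 and 13.97 in WT. The ranges met only at their ends, and Tagln rose by 0.42 ± 0.14 (adjusted p = 0.0292). Lmod1, a leiomodin that nucleates actin filaments in smooth muscle, was at 5.66, 6.07 and 6.68 in Null and at 6.18, 6.47 and 6.97 in WT. Its groups overlapped and it rose by 0.46 ± 0.15 (adjusted p = 0.035), but with the title number as a block the value was 0.44 with an adjusted p of 0.0553. Tpm2, the beta-tropomyosin gene, was at 13.02, 13.31 and 13.57 in Null and at 13.29, 13.69 and 13.83 in WT. It rose by 0.30 ± 0.10 (adjusted p = 0.0431), with overlapping groups, while 1 of its 4 probe sets differed by -0.28. Cnn1, the smooth-muscle calponin gene, was at 8.64, 9.10 and 9.61 in Null and at 8.87, 9.19 and 9.77 in WT. Its difference of 0.16 ± 0.25 was smaller than its error (adjusted p = 0.734). Cnn2, Cnn3, Tagln2, Cald1, Tpm1 and Tpm4 differed by -0.10 to 0.24. With the title number as a block, Cnn2 (0.19) and Cald1, which encodes the filament-binding caldesmon (0.20), also passed, at adjusted p of 0.0137 and 0.007533. The block called 12 of the 34 members, while it called 33.8% of all genes.

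Of the 4 myosin genes 1 fell and none rose. Myh10, the heavy chain of non-muscle myosin IIB, was at 12.38, 13.09, 12.67, 12.85, 12.83 and 12.79 in the Null arrays. In the WT arrays Myh10 was at 11.88, 12.31, 12.25, 12.19, 12.08 and 12.65. All but 1 WT array lay below every Null array. The difference was -0.54 ± 0.12 (adjusted p = 0.00163). Myh9, the heavy chain of myosin IIA, differed by 0.20 ± 0.14 (adjusted p = 0.373), and by 0.25 when blocked on the title number, where it passed (adjusted p = 2.499e-04). Unblocked and without Null replicate 1 it was 0.13. The Myh9 probe sets not used differed by -0.02 to 0.49. Myl9, the regulatory light chain of smooth-muscle and non-muscle myosin, differed by 0.55 ± 0.25 (adjusted p = 0.137), and Mylk, its kinase, by -0.03 ± 0.17 (adjusted p = 0.942). Of the 6 adhesion, cross-linking and intermediate-filament genes only Actn1, the alpha-actinin of stress fibres and focal adhesions, passed. Its lowest, median and highest levels were 12.82, 12.92 and 13.07 in Null and 13.04, 13.08 and 13.18 in WT. The groups overlapped by a narrow margin and Actn1 rose by 0.18 ± 0.06 (adjusted p = 0.0243). Vcl (vinculin), Zyx (zyxin), Flna (filamin A), Filip1l and Des (desmin) differed by -0.17 to 0.18.

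Of the 6 YAP target genes 3 rose, and all 6 differences were positive, with a median of 0.52. Ccn2, which encodes the matricellular protein CTGF, was at 11.64, 10.83 and 11.53 in the LSL-WT cells with Empty virus and at 11.10, 11.32 and 11.46 in the null cells. In the WT group Ccn2 was at 12.02, 11.50 and 12.33 in the LSL-WT cells with Cre and at 12.82, 12.66 and 13.19 in the WT cells with Cre. A single WT array, LSL-WT replicate 2, lay within the Null range. Ccn2 rose by 1.11 ± 0.32, or 2.16-fold (adjusted p = 0.014). Ajuba, a LIM protein that binds and restrains LATS kinases, had its lowest, median and highest levels at 9.59, 9.80 and 10.04 in Null and at 10.09, 10.41 and 11.10 in WT. Its groups did not overlap and it rose by 0.70 ± 0.16 (adjusted p = 0.00316). Lats2, a Hippo kinase and itself a YAP target, was at 7.69, 8.11 and 8.40 in Null and at 7.96, 8.66 and 9.35 in WT. The groups overlapped, and Lats2 rose by 0.54 ± 0.19 (adjusted p = 0.0485).

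The other targets did not pass. Ccn1, the matricellular protein CYR61, had its lowest, median and highest levels at 11.53, 12.20 and 12.68 in Null and at 12.07, 12.42 and 13.07 in WT, a difference of 0.26 ± 0.20 (adjusted p = 0.423). Of the 4 Ccn1 probe sets, 2 with lower signal differed by -0.38 and -0.45. Ankrd1, an ankyrin-repeat protein of stretched muscle and fibroblasts, was at 10.18, 10.63 and 11.50 in Null and at 10.96, 11.28 and 11.53 in WT. The ranges overlapped, and both Ankrd1 probe sets gave 0.50 (for the one used, ± 0.29 and adjusted p = 0.253). Amotl2, an angiomotin that tethers YAP, differed by 0.17 ± 0.15 (adjusted p = 0.505).

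None of the 4 regulators passed. Srf, the serum response factor, had its lowest, median and highest levels at 8.77, 9.24 and 9.47 in Null and at 9.12, 9.29 and 9.51 in WT. The groups overlapped and the difference was 0.10 ± 0.11 (adjusted p = 0.625). Yap1 differed by -0.08 ± 0.05 (adjusted p = 0.351) and Wwtr1 by -0.01 ± 0.08 (adjusted p = 0.943). Tead1, a DNA-binding partner of YAP, differed by -0.29 ± 0.14 (adjusted p = 0.173), and by -0.26 when blocked on the title number, where it passed (adjusted p = 0.03588). Unblocked and without WT replicate 4 it was -0.17.

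**Figure D1:**
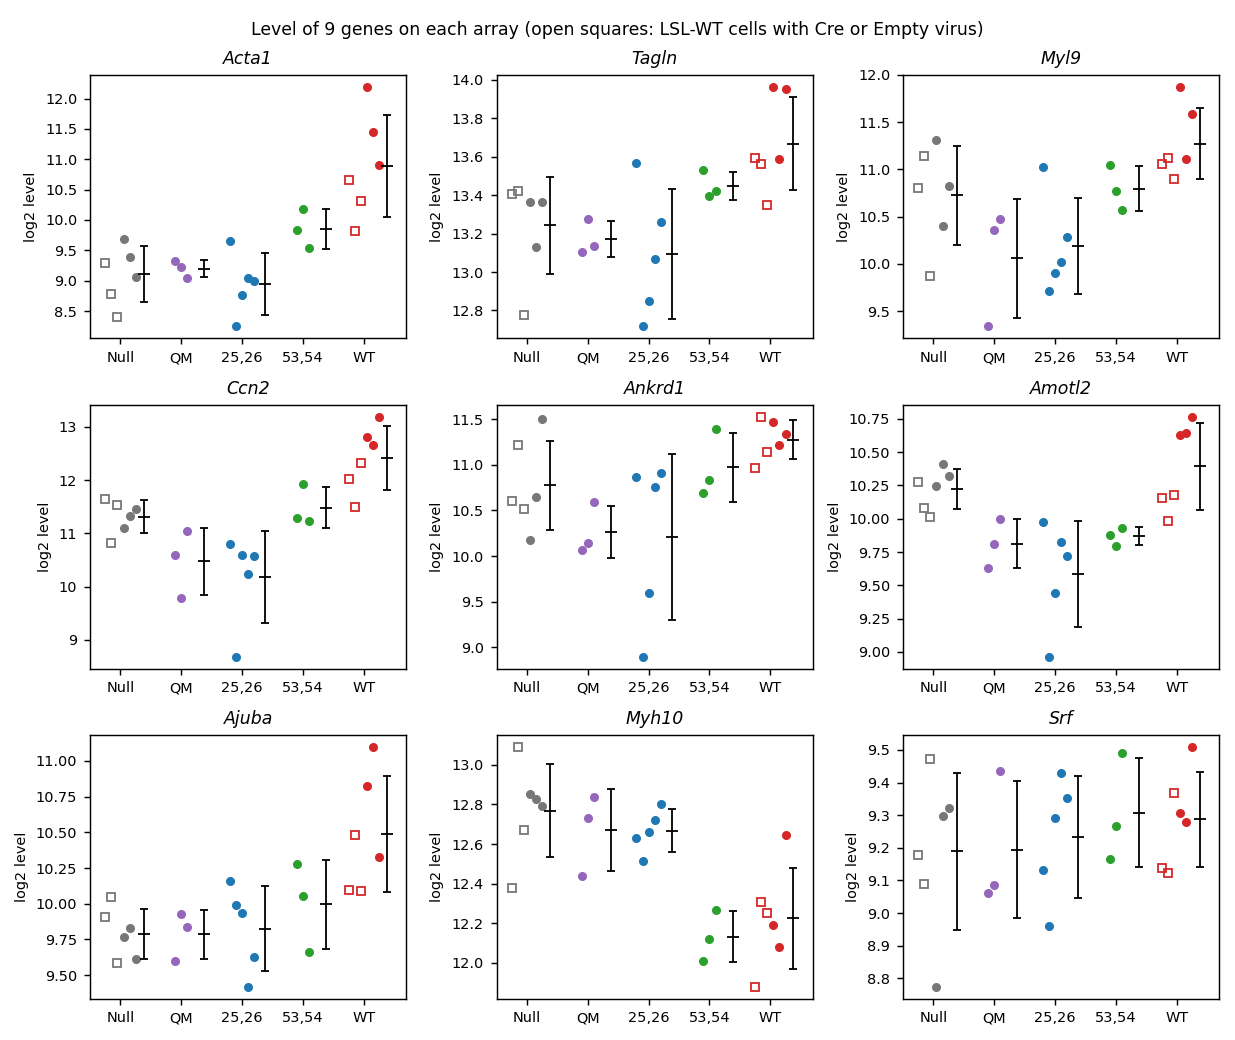
Log2 level of 9 genes in each of the 23 arrays, by group; points are arrays, open squares are the LSL-WT cells with Cre or Empty virus, and bars give the mean ± SD. All 6 WT arrays of Acta1 and of Ajuba lie above all Null arrays, and the lowest 25,26 array of Ccn2, at 8.68, stands apart from the other 4.

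The WT and Null calls for Acta1, Myh10, Ccn2 and Ajuba passed without any 1 array. Leaving out 1 array ended the others, with adjusted p of 0.06007 to 0.08542 for Tagln (Null replicates 3 or 5, WT replicates 4 or 6), 0.06367 to 0.09728 for Lmod1 (Null 1, 2 or 3, WT 4, 5 or 6), 0.05803 to 0.1068 for Tpm2 (Null 2, 4, 5 or 6, WT 1, 3, 4 or 6), 0.05049 to 0.06385 for Actn1 (Null 3 or 4, WT 2 or 6) and 0.07013 to 0.1385 for Lats2 (Null 1, 3, 5 or 6, WT 2, 4 or 5); 5 members were called without Null 3, WT 4 or WT 6.

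WT and Null each joined different cells. With the LSL-WT cells alone as WT, only Acta1 and Myh10 kept their calls against Null, and those of Ccn2 and Ajuba ended. With the null cells alone as Null, Acta1, Tpm2, Myh10 and Ajuba kept theirs, and that of Ccn2 ended. The comparison was also made in separate parts that share no array. In LSL-WT cells with Cre against Empty virus (n = 3 and 3), Acta1 rose by 1.44 ± 0.33 (adjusted p = 0.00668) and Myh10 fell by 0.57 (SE 0.17, adjusted p = 0.032). These were the only members called of 34, with 11.7% of all genes called (4.8% higher and 6.89% lower). Ccn2 differed by 0.62 ± 0.42 (adjusted p = 0.458) and Ajuba by 0.38 ± 0.21 (adjusted p = 0.31) there. In the same cells the title number as a block gave 8 calls, adding Lmod1 (0.44), Lats2 (0.43), Cald1 (0.24), Myh9 (0.23), Tpm2 (0.22) and Actn1 (0.20), all higher. The block also raised the share of all genes called to 26.7%. Without the block, single arrays moved some of these added members: Lats2 was at 0.17 without WT replicate 2, 0.68 without WT 3 and 0.26 without Null 3, Myh9 at 0.40 without WT 1, 0.15 without WT 3 and 0.08 without Null 1, and Tpm2 at 0.34 without WT 2, 0.14 without WT 3 and 0.09 without Null 2. The call for Myh10 ended without WT replicate 1 or Null replicates 2 or 3, with adjusted p of 0.06719 to 0.1872.

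Between WT cells and null cells, both given Cre (n = 3 and 3), 4 members rose and 1 fell, with 15.9% of all genes called (8.75% higher and 7.19% lower). Acta1 rose by 2.13 ± 0.33 (adjusted p = 2.143e-04), Ccn2 by 1.60 ± 0.42 (adjusted p = 0.0129), Ajuba by 1.01 ± 0.21 (adjusted p = 0.00237) and Lmod1 by 0.47 (adjusted p = 0.0395). Myh10 differed by -0.52 ± 0.17 (adjusted p = 0.042). The test of the difference between both parts called none of the 34 members and 1 gene of all tested (0.00655%), and 1193 genes had an unadjusted p under 0.05. For Acta1 that difference was 0.70 ± 0.47 (adjusted p = 0.845), and for Ajuba it was 0.63 ± 0.30 (adjusted p = 0.624). Xist differs between these cells (above), and with its level as a covariate 3 members were called in place of 5; its part in the result was otherwise not tested. The call for Lmod1 ended without Null replicates 5 or 6 or WT replicates 4 or 6 (adjusted p 0.08932 to 0.1636), and that for Myh10 without any 1 Null replicate of 4 to 6 or WT replicates 4 or 5 (0.08371 to 0.1839).

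**Figure D2:**
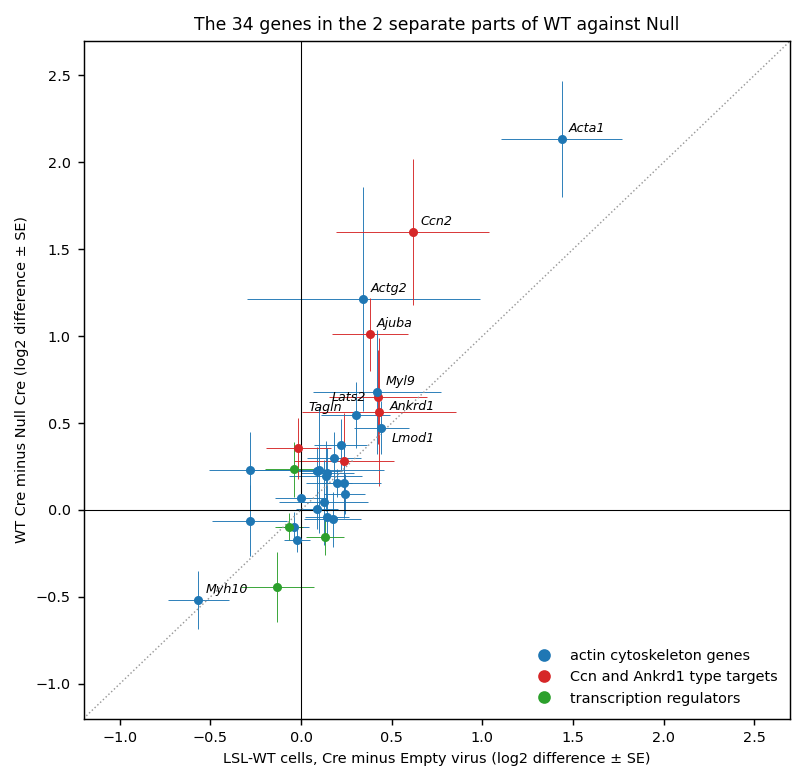
Log2 difference ± SE of the 34 genes in LSL-WT cells with Cre against Empty virus (horizontal) and in WT against null cells, both with Cre (vertical); colours mark the gene sets and the dotted line marks equal values. Acta1 is highest on both axes (1.44 and 2.13), Myh10 is lowest on both (-0.57 and -0.52), and Ccn2 and Ajuba lie above the dotted line.

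In cells whose p53 had a disrupted first transactivation domain, no actin cytoskeleton gene was called against Null, and the YAP targets Amotl2 and Ccn2 lay below every Null array. Of the 34 members, 1 fell against Null, with 4.3% of all genes called (1.28% lower). Amotl2 was at 9.98, 8.96, 9.44, 9.83 and 9.72 in the 25,26 arrays, against a lowest, median and highest Null level of 10.01, 10.26 and 10.41. No 25,26 array reached the Null range, and the difference was -0.64 ± 0.16 (adjusted p = 0.023). Ccn2 was at 10.80, 8.68, 10.59, 10.24 and 10.58, and these arrays also lay below all Null arrays. Its difference was -1.14 ± 0.33 with an adjusted p of 0.0573, and -1.27 when blocked on the title number, where it passed (adjusted p = 0.005899). Non-overlap below Null, as for Amotl2 and Ccn2, was found in 1.81% of all genes. Ankrd1 was at 10.86, 8.90, 9.60, 10.76 and 10.91, within or below the Null range, with a difference of -0.57 (adjusted p = 0.365) and with the block of -0.84 (adjusted p = 0.04502). Without 25,26 replicate 2, the lowest array, the unblocked difference of Ankrd1 was -0.24. The median difference of the 6 targets was -0.45, with 5 negative. That of the 24 actin cytoskeleton genes was -0.06, with 13 negative, and over all genes it was 0.0071.

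With the block, 5 members were called in place of 1, adding Myh9 (0.18) and Wwtr1 (0.22), both higher, to Amotl2, Ccn2 and Ankrd1, while 14.2% of all genes were called. The unblocked difference of Myh9 was 0.12, and it was 0.22, 0.07 and 0.07 without 25,26 replicates 1, 2 and 3 and 0.05 without Null replicate 1. The Myh9 probe sets not used differed by -0.03 to 0.10, unblocked. The Amotl2 call ended without 25,26 replicate 2 (-0.48, adjusted p = 0.07762) or 3 (-0.60, adjusted p = 0.0691) or Null replicate 5 (-0.60, adjusted p = 0.05174). That of Ccn2 appeared only without 25,26 replicate 1. Over all arrays left out in turn, its unblocked difference ran from -1.29 to -0.76, with limma adjusted p of 0.04277 to 0.1695.

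In 53,54 cells, with the second domain disrupted, 2 members rose and 1 fell against Null, with 19.6% of all genes called (9.22% higher and 10.3% lower). Myh10 was at 12.01, 12.12 and 12.27, below every Null array, as in 10.4% of all genes, and its difference was -0.64 ± 0.14 (adjusted p = 0.00271). Tpm2 was at 13.50, 13.84 and 13.74 against 13.02 to 13.57 in Null, and rose by 0.38 ± 0.13 (adjusted p = 0.0403). Des, the muscle intermediate filament, was at 7.54, 7.54 and 7.51 against 7.05 to 7.45 in Null. All its 53,54 arrays were above the Null arrays, as in 9.32% of all genes, a rise of 0.37 ± 0.12 (adjusted p = 0.0329). Acta1 was at 9.84, 10.18 and 9.54, with 2 of 3 arrays above the Null range, but its difference of 0.75 ± 0.38 did not pass (adjusted p = 0.193). Ccn2 was at 11.30, 11.92 and 11.24, around the Null range (difference 0.17 ± 0.39, adjusted p = 0.843). Amotl2 was at 9.88, 9.80 and 9.93, below all Null arrays, with a difference of -0.35 ± 0.19 that did not pass (adjusted p = 0.217). Of the other targets, Ccn1, Ankrd1, Ajuba and Lats2 differed by 0.01 to 0.20.

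The block raised the count in 53,54 to 5 by adding Cald1 (0.19) and Myh9 (0.17), with 31.8% of all genes called. The unblocked Myh9 difference was 0.23, and 0.14 without 53,54 replicate 3. Without single arrays the Tpm2 call ended for 53,54 replicates 3 or 4 and Null replicates 2, 4, 5 or 6 (adjusted p 0.05121 to 0.2164) and the Des call for any 1 of the 53,54 arrays and Null replicates 1, 3, 4 or 5 (0.05547 to 0.1082), and with probe sets averaged per gene none of the 3 calls passed.

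In QM cells, with both domains disrupted, none of the 34 members passed against Null, where limma called 2 genes of all tested (0.0131%) and 377 had an unadjusted p under 0.05. All 6 targets had negative differences, with a median of -0.32, against -0.07 for the actin cytoskeleton genes and 0.0119 over all genes. Ccn2 was at 10.59, 9.79 and 11.05, with 2 of 3 arrays below the Null range (difference -0.84 ± 0.39). Amotl2 was at 9.63, 9.81 and 9.999, just under the lowest Null array of 10.01 (difference -0.41 ± 0.19). It and the kinase gene Mylk were the 2 members with all QM arrays below Null, where 0.485% of all genes were. Myl9 was at 9.34, 10.35 and 10.48 against 9.87 to 11.31 in Null (difference -0.67 ± 0.31). Acta1, at 9.32, 9.23 and 9.05, lay inside the Null range. The number of arrays limits what could pass here, and the values do not show that QM and Null cells were alike.

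**Figure D3:**
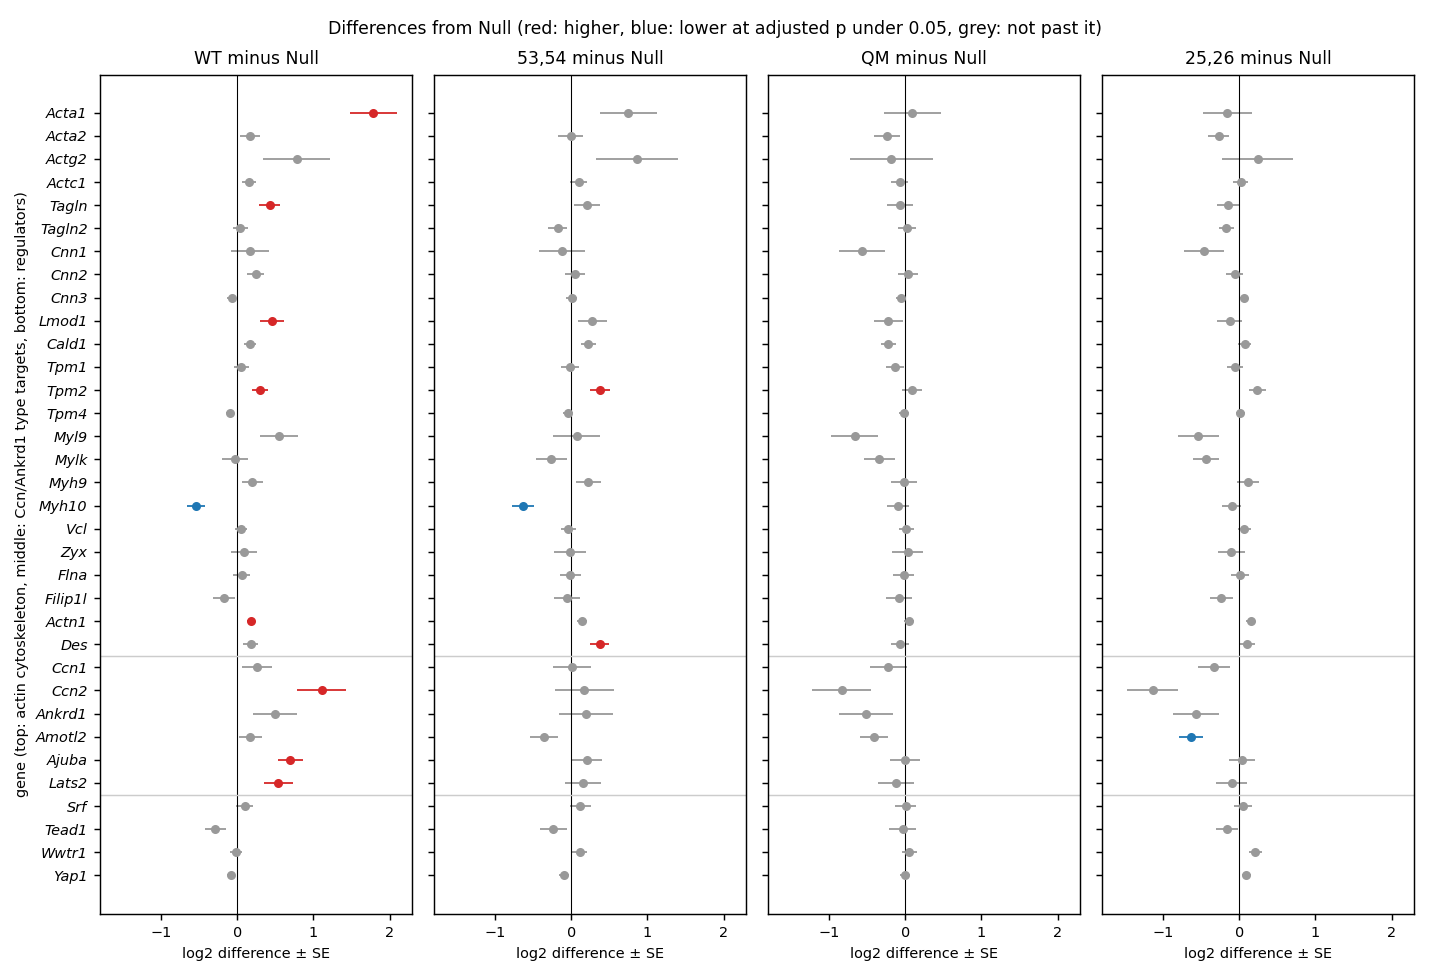
Log2 difference from Null ± SE of each of the 34 genes in WT, 25,26, 53,54 and QM, with calls higher than Null in red, lower in blue and others in grey. WT holds 9 calls, 25,26 holds 1, 53,54 holds 3 and QM holds none.

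Set against WT, the 25,26 cells were lower in 4 contractile genes and 4 YAP targets and higher in Myh10. These comparisons share the WT arrays with the one above, so they do not support it independently. Of the 34 members 8 fell and 1 rose in 25,26 against WT, with 7.7% of all genes called (4.34% higher and 3.36% lower). Ccn2, at 8.68 to 10.80 in 25,26 and 11.50 to 13.19 in WT, did not overlap, and its difference was -2.24 ± 0.33 (adjusted p = 2.604e-04). Acta1, at 8.25 to 9.66 against 9.82 to 12.20, did not overlap either and differed by -1.95 ± 0.32 (adjusted p = 7.376e-04). The same held for Amotl2 (-0.81 ± 0.16, adjusted p = 0.00316) and for Ankrd1 (-1.07 ± 0.30, adjusted p = 0.032), while 2.22% of all genes lay below WT without overlap. Ajuba, at 9.42 to 10.16 against 10.09 to 11.10, differed by -0.66 (adjusted p = 0.0195).

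The contractile genes that fell with Acta1 were Myl9, Lmod1 and Tagln. Myl9 was at 11.02, 9.71, 9.91, 10.02 and 10.28 in 25,26 and at 10.89 to 11.88 in WT, so that 4 of 5 arrays lay below the WT range. Its difference was -1.09 ± 0.27 (adjusted p = 0.0145). Tagln, at 13.57, 12.72, 12.85, 13.07 and 13.26 against 13.35 to 13.97, differed by -0.58 (adjusted p = 0.0167). Lmod1 differed by -0.59 (adjusted p = 0.028), and by -0.53 when blocked on the title number, where it did not pass (adjusted p = 0.08432). Myh10, the member that rose, was at 12.51 to 12.80 against 11.88 to 12.65, a difference of 0.44 ± 0.12 (adjusted p = 0.031). With the block 12 members were called, and 12% of all genes were. The block added Ccn1 (-0.62, adjusted p = 0.01802), Lats2 (-0.52, adjusted p = 0.01741), Acta2 (-0.48, adjusted p = 0.0437) and Yap1 (0.19, adjusted p = 0.04206). Without the block these stood at -0.59, -0.64, -0.44 and 0.17, with adjusted p of 0.0914, 0.0565, 0.0643 and 0.0717. The median difference was -0.73 for the 6 targets, -0.12 for the 24 actin cytoskeleton genes, 0.15 for the 4 regulators and 0.0124 over all genes.

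The calls of Acta1, Ccn2, Amotl2 and Myl9 passed without any 1 array. With the LSL-WT cells alone as WT, the calls of Amotl2 (limma adjusted p = 0.1068) and Myl9 (adjusted p = 0.1905) ended. So did the calls of Tagln, Lmod1, Ankrd1 and Ajuba, while Acta1, Ccn2 and Myh10 kept theirs. Leaving out single arrays ended those of Tagln (25,26 replicate 3, adjusted p 0.05396), Ajuba (25,26 replicates 4 or 5, WT 5, 0.05039 to 0.07459), Lmod1 (25,26 replicates 2, 4 or 5, WT 4, 5 or 6, 0.05807 to 0.0799), Ankrd1 (25,26 replicates 2 or 3, WT 2, 4, 5 or 6, 0.05076 to 0.0985, with -0.74 without replicate 2) and Myh10 (25,26 replicates 1, 3, 4 or 5, WT 1, 4 or 5, 0.05331 to 0.09201).

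In QM against WT 7 members fell and 1 rose, with 13.9% of all genes called (8.16% higher and 5.76% lower). Ccn2 differed by -1.95 ± 0.39 (adjusted p = 0.00165) and Acta1 by -1.69 ± 0.38 (adjusted p = 0.00382), and neither overlapped WT. Myl9, at 9.34, 10.35 and 10.48 in QM, lay below all WT arrays and differed by -1.21 ± 0.31 (adjusted p = 0.0107). Ajuba (-0.70, adjusted p = 0.021), Lmod1 (-0.68, adjusted p = 0.0177) and Cald1 (-0.39 ± 0.10, adjusted p = 0.00852) also lay wholly below WT. Amotl2 differed by -0.58 (adjusted p = 0.0404) and Myh10 by 0.44 (adjusted p = 0.0437). Tagln and Ankrd1 lay below all WT arrays too, at -0.50 (adjusted p = 0.0546) and -1.01 (adjusted p = 0.0613). In all, 9 members lay wholly below WT, including Actn1 at -0.13 (adjusted p = 0.267), and 6.55% of all genes did. The calls of Lmod1, Myl9, Amotl2 and Ajuba ended with the LSL-WT cells alone as WT. With the title number as a block 15 members were called, 14 of them lower, and 26.4% of all genes were. The members added were Tagln (-0.50), Ankrd1 (-1.01), Lats2 (-0.66), Ccn1 (-0.48), Tpm2 (-0.21), Myh9 (-0.21) and Cnn2 (-0.20). Without the block, Myh9 was at -0.0077 without QM replicate 1 and -0.32 without QM 3, Cnn2 at -0.13 without QM 3 and Ccn1 at -0.30 without QM 2. Without QM replicate 1, 3 members were called: the calls of Myl9 (-0.86, adjusted p = 0.1286), Cald1 (-0.27, adjusted p = 0.1109), Lmod1, Amotl2 and Ajuba ended. Calls also ended without QM 2 for Lmod1, QM 3 for Ajuba, QM 2 or 3 or WT 4, 5 or 6 for Amotl2, and QM 2 or 3 or WT 1 to 5 for Myh10, and over all such arrays the adjusted p reached 0.07078, 0.1235, 0.1969 and 0.2145.

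In 53,54 against WT none of the 34 members passed, where limma called 56 genes (0.367%) and 1100 had an unadjusted p under 0.05. All 6 targets had negative differences, with a median of -0.44. Ccn2 differed by -0.94 ± 0.39 (adjusted p = 0.555), and Amotl2 by -0.52 ± 0.19 (adjusted p = 0.418) with all 53,54 arrays below all WT arrays, as in 1.21% of all genes. Acta1 differed by -1.04 ± 0.38 (adjusted p = 0.431). Myh10, which was lower than Null in both groups, differed by -0.09 ± 0.14. With 3 arrays of 53,54, these misses do not show that 53,54 and WT cells were alike.

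Compared as sets, the targets differed more between groups than the actin cytoskeleton genes did. The mean log2 level of the 6 targets was 10.66 to 11.26 in the WT arrays, 10.31 to 10.54 in Null, 10.37 to 10.52 in 53,54, 9.93 to 10.26 in QM and 9.34 to 10.32 in 25,26. Every WT array was thus above every other array, and the QM arrays lay below all Null arrays. The mean of the 24 actin cytoskeleton genes was 11.34 to 11.63 in WT, 11.06 to 11.36 in Null, 11.20 to 11.37 in 53,54, 10.92 to 11.20 in QM and 10.98 to 11.31 in 25,26. WT was again highest, but its range met those of Null and 53,54. The gap between both means, which has no meaning as a level because it sets probes against each other, shows by its changes how far the sets moved apart. It was smallest in WT, at 0.48 ± 0.22 (SD). Null stood at 0.82 ± 0.17 and 53,54 at 0.85 ± 0.01. QM stood at 1.05 ± 0.20 and 25,26 at 1.20 ± 0.26. From Null to WT it changed by -0.33, against a pooled SD of 0.20. In the separate parts the change was -0.19 for LSL-WT cells with Cre against Empty virus and -0.48 for WT against null cells. The WT arrays at 0.65 and 0.68, both LSL-WT cells, lay within the Null range, whose lowest array was at 0.64 and highest at 1.03. QM replicates 1 and 3, at 0.95 and 0.93, 25,26 replicate 1, at 0.99, and all 53,54 arrays, at 0.83 to 0.86, lay within it too. The highest array of all was 25,26 replicate 2, at 1.65. No test was made over either set. The sets also differ in size and in signal level, and the part of either in this contrast was not tested.

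In the order of the group means, all 6 targets had their highest mean in WT and their lowest in 25,26 (4 genes) or QM (2 genes). Of the 24 actin cytoskeleton genes, 11 (45.8%) had this order and 13 (54.2%) were highest in WT, where 9.92% and 20.9% of all genes tested were. This order was noticed after the values were seen and is given as a description. The ranges of Null and 53,54 overlapped for Ccn1, Ccn2, Ankrd1, Ajuba and Lats2, and Amotl2 lay lower in 53,54 (9.80 to 9.93). None of the 4 regulators was highest in WT.

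**Figure D4:**
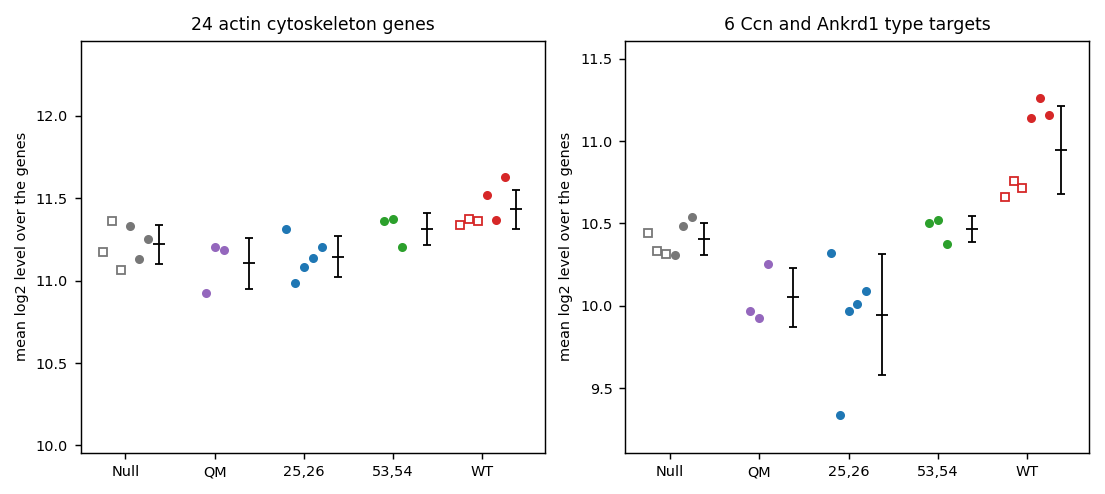
Mean log2 level per array of the 24 actin cytoskeleton genes and of the 6 Ccn and Ankrd1 type targets, by group, with the group mean ± SD. The targets run from 9.34 in a 25,26 array to 11.26 in a WT array, and the actin genes from 10.92 in a QM array to 11.63 in a WT array.

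Further genes of the same pathways were counted from lists of actin and SRF genes, YAP targets and Hippo components. In WT against Null 6 of 33 other actin and SRF genes rose and none fell (18.2%, with 22.7% of all genes called). Flnc, the muscle filamin, rose by 0.55 ± 0.11 (adjusted p = 8.326e-04). Fhl2, a LIM cofactor of SRF, rose by 0.60, Itgb1, the integrin beta-1 chain, by 0.55, and Ldb3, a Z-disc protein, by 0.44. Of 16 other YAP targets 3 rose. Ptpn14, a phosphatase that binds YAP, rose by 1.53 ± 0.12 (adjusted p = 4.604e-09) and Nuak2, a kinase acting on myosin phosphatase, by 1.44 ± 0.28 (adjusted p = 5.196e-04). Myof, the membrane protein myoferlin, rose by 0.20, and Crim1 did not pass (0.54, adjusted p = 0.0622).

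Across the mutants Ptpn14 was at 8.99 to 9.62 in Null, 10.51 to 11.28 in WT, 10.65 to 11.01 in 25,26 and 11.13 to 11.45 in 53,54. It was higher than Null in 25,26 by 1.47 ± 0.12 (adjusted p = 6.483e-08), in cells where Ccn2 and Amotl2 were not. Nuak2 was at 6.21 to 6.76 in Null, 7.004 to 8.95 in WT and 6.05 to 6.57 in 25,26, a difference from WT of -1.56 ± 0.29 (adjusted p = 0.002012). Fat1, an atypical cadherin upstream of Hippo, rose in WT by 1.09 ± 0.10 (adjusted p = 5.034e-08) and in 53,54 by 0.99 ± 0.12 (adjusted p = 3.111e-06), and was lower in 25,26 than in WT by -0.85 ± 0.10. Of the 19 Hippo genes measured 2 rose, the other being Wwc2 (0.31), and Tead2, a TEAD factor, fell by 0.74 (adjusted p = 0.0217). Vgll3, a TEAD cofactor, did not pass against Null (0.64, adjusted p = 0.0902).

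Markers of other contractile and adherent cells moved with some of these results. Over the 10 smooth-muscle and pericyte markers the mean log2 level was 6.69 to 7.36 in Null, 7.41 to 7.86 in WT, 7.43 to 8.04 in 53,54, 7.13 to 7.70 in 25,26 and 6.87 to 7.19 in QM. In WT 3 of the 10 rose (Notch3 by 2.41, Rgs5 by 2.27, Itga8 by 0.87) and Hspb6 fell by 0.76. Beside these and the other marker counts in WT against Null, 10.9% of all genes were called higher and 11.8% lower. In 53,54 Rgs5 was higher by 4.06 and Notch3 by 3.31. Myh11 and Myocd, which define smooth muscle, stayed at 4.25 to 5.14 and 4.36 to 4.97 in all arrays, around the filter level of 4.79. The 9 epithelial markers had a mean of 6.54 to 7.07 in Null and 7.41 to 8.03 in WT, and 4 of 9 rose, with Dsp by 3.10. Of the fibroblast markers 4 of 10 fell, among them Pdgfra by 1.23 and Dcn by 1.09. In WT against Null no marker of skeletal (6 tested) or heart muscle (7 tested) was called, and their lists lay at 4.80 to 5.03. None of 5 endothelial markers was called there either. In the WT against the null cells, both with Cre, 1 of 7 heart-muscle and 1 of 5 endothelial markers were called higher. Of all genes, 8.75% were called higher in that comparison. Of 6 macrophage markers Cd68, a lysosomal protein, rose by 1.25 in WT against Null. The part of these shifts in the contractile genes was not tested.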

How the data were processed

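RNA of 23 samples was hybridised to Affymetrix arrays. The authors deposited 1 intensity per probe set and sample on a linear scale, made with RMA per the submitters' processing notes, with its version and options not stated there. Values were taken to log2. Of 45101 probe sets, 64 controls, 932 with several symbols and 9160 without one were left out. Symbols were updated through Entrez IDs to RefSeq names (GRCm38.p6).

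Genes were tested when at least 3 arrays exceeded the 30th percentile (log2 4.79). A 5-group means model, and a 7-subgroup one for the separate WT parts, was fitted to all arrays with limma 3.58.1 in R 4.3.3 (moderated two-sided test, Benjamini-Hochberg over 15266 genes, threshold 0.05). The method was tested on simulated data. The members, lists and tests were chosen with earlier results of these data known. Every member is named or counted by role. Array values are given for members called in WT against Null and for Acta2, Tagln, Cnn1, Ccn1, Ccn2, Ankrd1 and Srf, and up to 4 genes per pathway list are named by largest statistic. Markers follow the same rule. The results of 1 list are not reported here. Array values of other members, Myh11, Myocd, and the values of listed genes outside WT against Null were chosen after they were seen.

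Equal title numbers were taken to pair arrays where at least 3 pairs existed and every same-number correlation of deviations from subgroup means exceeded 0.1. This held from the data, since no label says what the number marks: in WT with Null, 10 of 10 pairs, median 0.387 against -0.192 for other numbers. The pairing rule held in each comparison except WT Cre with Null Cre, which has 2 pairs. The main model held no term for the pairing, which entered only as the title-number block among the alternatives. The main counts, errors and adjusted p therefore ignore it. Alternatives changed the filter (none, or a mean above the median), the probe sets (averaged per gene, or each tested), the scaling (quantile or median centring), the terms (strain, Xist level, title number), the variance (array weights, trended and robust) and the arrays (those compared alone, subsets of WT and Null). Each array was left out in turn.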

Additional observations from a re-analysis of the deposited data

Results flagged for a closer look

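Within groups of 5 or 6 arrays, 108 sets of values were examined for an array far from the rest, and chance marks about 1 in 20 of them. In 5 sets 1 array stood apart. Ccn2 in 25,26 replicate 2 was at 8.68, with the other 4 arrays at 10.24 to 10.80. Flna in the same array was at 13.05, with the others at 12.73 to 12.80. Tagln2 in 25,26 replicate 1 was at 12.53, with the others at 12.08 to 12.16. Actc1 in WT replicate 6 was at 5.74, with the others at 5.32 to 5.45. Tead1 in WT replicate 4 was at 11.12, with the others at 11.69 to 11.97. The difference of Ccn2 between 25,26 and WT lay between -2.43 and -1.87 when any 1 array was left out. No cause was tested.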

How the results depend on the processing

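Acta1 and Myh10 in WT against Null, and Acta1 and Ccn2 in 25,26 and in QM against WT, kept their direction and call under every alternative and without any 1 array. No member's call changed direction. In WT against Null, 9 members were called, and 5 with the Xist level as a covariate or with the compared arrays alone. Only 4 were called with the null cells alone as Null, and 2 with the LSL-WT cells alone as WT. In 25,26 against Null the count of 1 became 2 with a mean above the median, 5 with the title number as a replicate block, 4 with array weights, and 0 with the Xist level or with the null cells alone. In 53,54 against Null the count of 3 became 0 with probe sets averaged per gene, 5 with the block and 10 with array weights. In 25,26 against WT the count of 9 became 15 with array weights, 4 with the compared arrays alone and 3 with the LSL-WT cells alone as WT. In 53,54 against WT array weights called 1. In QM against WT the count of 8 became 5 with the compared arrays alone, 15 with the block and 4 with the LSL-WT cells alone as WT. In the LSL-WT cells the count of 2 became 1 with the compared arrays alone and 8 with the block. In WT Cre against Null Cre the count of 5 became 8 with the block, 3 with the Xist level, 10 with array weights and 3 with the compared arrays alone. The cause of these changes was not tested. Among these alternatives, the share of all genes called was counted for the block alone. The other changes in count therefore cannot be set against all genes. The block changed no call beyond those named with it. In WT Cre against Null Cre, where 2 pairs do not establish pairing, Tpm2, Myh9, Lats2, Srf and Tead1 joined and Lmod1 and Myh10 left. There the block called 28.1% of all genes.

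Leaving out each array in turn gave 5 to 8 calls in WT against Null, 0 to 2 in 25,26 against Null, 1 to 2 in 53,54 against Null, 0 in QM against Null, 6 to 10 in 25,26 against WT, 0 in 53,54 against WT, 3 to 9 in QM against WT, 1 to 2 in the LSL-WT cells, 3 to 6 in WT Cre against Null Cre, and 0 for the difference between both parts. The change from Null to WT of the gap between actin genes and targets ranged from -0.37 to -0.26. Over single members, 7257 values kept their side of the threshold and, where called, their direction, while 105 gained a call and 176 lost one. The direction of values that were not called was not compared. Groups of 3 to 6 arrays limit the precision, and Actc1, Lmod1 and Mylk lay closest to the filter level.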
